A study of Mus musculus with 2 samples.

Results

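A set of 10 genes for stretch-responsive proteins of heart muscle is described here, out of the 55401 genes in the deposited tables. The rule names them by family and takes no measured value, though earlier results of these data were known when it was set. They are the muscle ankyrin repeat genes Ankrd1, Ankrd2 and Ankrd23, the LIM-domain genes Fhl1, Fhl2 and Csrp3, the titin cap gene Tcap, the Xin actin-binding repeat genes Xirp1 and Xirp2, and Nrap, a LIM and nebulin-like gene. Each name matched exactly 1 identifier in the tables, and all 10 genes reached a level of 1 CPM, the usual unit of read counts scaled by library size, in at least 1 library.

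The RNA came from C57BL/6 mouse hearts after TAC, transverse aortic constriction, in which a ligature tightens the aortic arch and the left ventricle must pump against it. There were 2 groups with 1 library each. The first carried the label TAC alone, and the second had TAC and then dioscin, a plant steroidal saponin, over 4 weeks. The treatment protocol mentions dioscin in the same words for both samples, so only the treatment label says that the TAC library had no drug. Both groups therefore had the surgery, and a heart without surgery was not analysed here. The labels do not say if hearts were pooled, and the age and sex of the mice are not given.

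Stretch of the sarcomere is sensed along titin, the giant elastic protein of striated muscle, and at the ends of the cell. At the I-band, the ankyrin repeat proteins bind the N2A region of titin and can move to the nucleus, and the FHL proteins bind the neighbouring N2B region. At the Z-disc, the titin cap protein (telethonin) and the muscle LIM protein encoded by Csrp3 form part of a complex at the end of titin. The Xin proteins and the Nrap protein sit at the intercalated disc and the myotendinous junction, where thin filaments join the membrane. Several of these genes, Ankrd1 above all, are known to be induced in the overloaded heart.

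The counting of Ankrd23 needs a word before its values. Its exons lie on chromosome 1 (GRCm38, 36530188 to 36536883, minus strand), and the annotated gene Gm42417 runs over the same exons on the same strand. Only 588 of the 2697 merged exonic bases of Ankrd23, or 21.8%, belong to Ankrd23 alone. The deposited tables hold Gm42417 as a gene of its own with 0 counts in both libraries, and they hold a separate line for reads that fall in more than 1 gene, which held 1.49% of all alignments tallied for the TAC library and 1.39% for the other. A read in the shared exons could have gone to that line, so the Ankrd23 count may rest on the stretches that Ankrd23 does not share. Those stretches include 2 whole coding exons of 99 bases, 33 codons each, which are shown because they are the largest coding part that only Ankrd23 holds. They are written 5′ to 3′ on the gene's strand, from the GENCODE M21 transcripts.

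Ankrd23 exon at chr1:36531909-36532007: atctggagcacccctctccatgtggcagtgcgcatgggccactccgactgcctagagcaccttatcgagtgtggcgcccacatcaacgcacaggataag
Ankrd23 exon at chr1:36531723-36531821: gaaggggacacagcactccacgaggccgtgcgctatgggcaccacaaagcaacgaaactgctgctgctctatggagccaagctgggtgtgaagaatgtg

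**Figure D1:**
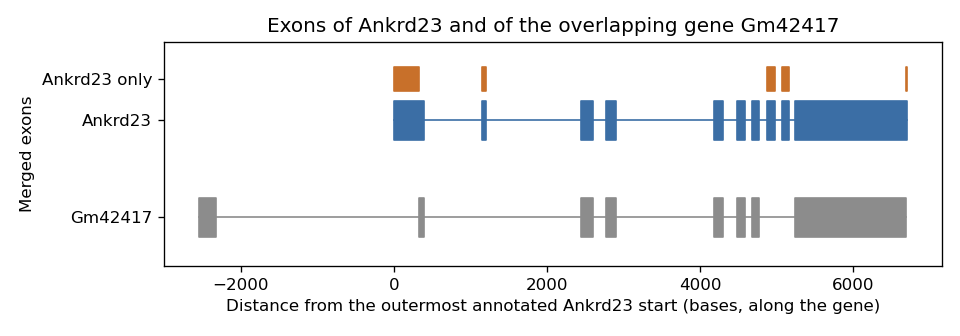
Merged exons of Ankrd23 and of Gm42417, drawn by distance in bases from the outermost annotated Ankrd23 start. The upper marks show the 588 bases that belong to Ankrd23 alone, out of 2697.

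For the other 9 genes the overlap was small or none. Opposite-strand genes cover 6.83% of the exonic bases of Nrap (Habp2 and Gm17197) and 1.4% of those of Xirp2 (Gm13601), and the library kit does not mark strand. Ankrd1, Ankrd2, Fhl1, Fhl2, Csrp3, Tcap and Xirp1 had no exonic overlap with another gene and shared no stretch of 50 bases with the transcripts of another gene.

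The regulators that are known to act on these genes include TEAD factors, which bind the MCAT motif, serum response factor, which binds the CArG box, and MEF2. RefSeq promoters (GRCm38.p6) were found for 8 of the 10 genes, with 12 annotated starts, and the 250 bases before each start were searched on both strands. The MCAT motif was CATTCC, and the CArG box and the MEF2 site were searched by their consensus. Of 32851 promoters of the same length, 12.6% held an MCAT motif, 1.47% a CArG box and 2.92% a MEF2 site. All matches found in the windows of these genes are shown, and any link to the ratios described further on was not tested. Each is printed as 30 bases on the gene's strand with the match in capitals, and GGAATG is CATTCC read on the other strand.

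Ankrd1, MCAT at -210, chr19:36120037-36120066: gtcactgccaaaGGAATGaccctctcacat
Ankrd1, MCAT at -123, chr19:36119950-36119979: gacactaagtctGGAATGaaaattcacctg
Ankrd23, downstream start, MCAT at -120, chr1:36535842-36535871: cccagtgggccaCATTCCcagaacggtatt
Fhl1, upstream start, CArG box at -102, chrX:56779571-56779600: ccttggatcaCCTAAAATGGttaagaattt
Fhl2, upstream start, CArG box at -96, chr1:43196838-43196867: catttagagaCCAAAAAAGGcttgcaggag
Fhl2, downstream start, CArG box at -31, chr1:43163973-43164002: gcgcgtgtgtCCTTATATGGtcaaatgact
Fhl2, upstream start, MEF2 site at -31, chr1:43196773-43196802: tggacatgccTTATTTATAActctgctgac
Xirp2, MEF2 site at -74, chr2:67445918-67445947: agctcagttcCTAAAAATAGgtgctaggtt

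Upstream and downstream mark the 2 RefSeq starts of a gene that has more than 1. RefSeq and GENCODE place some starts apart. The windows of Ankrd1, Ankrd23, Fhl1 and the downstream start of Fhl2 lie inside the gene as GENCODE annotates it. The window of the upstream Fhl2 start does so in part. Positions count from the base before the start as -1 and give the first base of the match. No match overlapped another. Both FHL genes held a CArG box, Fhl2 before each of its 2 starts and Fhl1 before 1 of 2. The windows of Ankrd2, Csrp3 and Nrap held none of the 3 motifs. A match describes letters in these windows and shows no binding.

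Counts in genes summed to 16782741 for TAC and to 17612259 for TAC with dioscin, of which mitochondrially encoded genes took 31.6% and 25.5%. Counts were scaled with TMM factors and are given as CPM, and the ratio is TAC with dioscin over TAC alone, with 0.5 added to each count. Its 95% interval is an exact Clopper-Pearson interval of the counts and covers counting error only. With 1 library per group there is no test, and neither differences between mice nor PCR copies are in the interval. A gene is called higher or lower when its ratio is at least 2 in either direction, its interval excludes 1 and it reached 1 CPM in a library. By that rule, 19.3% of the 15697 genes that reached 1 CPM were called, 10.5% as higher and 8.77% as lower. Of the 1497 genes that reached 100 CPM in a library 20.4% were called, 14.6% as higher and 5.81% as lower.

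The libraries stood apart in atrial muscle RNA. Of 6 atrial markers, the 5 other than Nppa summed to 69 counts or 4.00 CPM under TAC and to 79693 counts or 4656 CPM with dioscin. Nppa, which is also a load-induced gene, had 588 and 12663 CPM. The labels give the tissue as heart and do not say which part was taken, so treatment and the part of the heart sampled cannot be told apart in any ratio given here.

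Of the 10 genes, 2 were higher in the dioscin library (Fhl1 and Tcap), 2 were lower (Ankrd23 and Xirp2), and 6 did not pass the rule. That is 4 of 10 called, beside 19.3% of all genes and 20.4% of the abundant ones. With so few genes, chosen by name, and with Tcap and Xirp2 close to the 2-fold line, the gap between these shares is given as a description and was not tested. The median log2 ratio of the 10 was 0.30, beside 0.01 for all genes at or above 1 CPM and 0.24 for those at or above 100 CPM, a level that 8 of the 10 reached. The single genes ran apart, from -1.53 to 1.83 on the log2 scale, and the ends of that range lay at percentiles 3.85 and 96.3 of all 15697 genes. Together the 10 genes took 0.414% of the gene counts under TAC and 0.504% under TAC with dioscin. With mitochondrially encoded genes left out of the total, these shares were 0.605% and 0.676%.

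**Figure D2:**
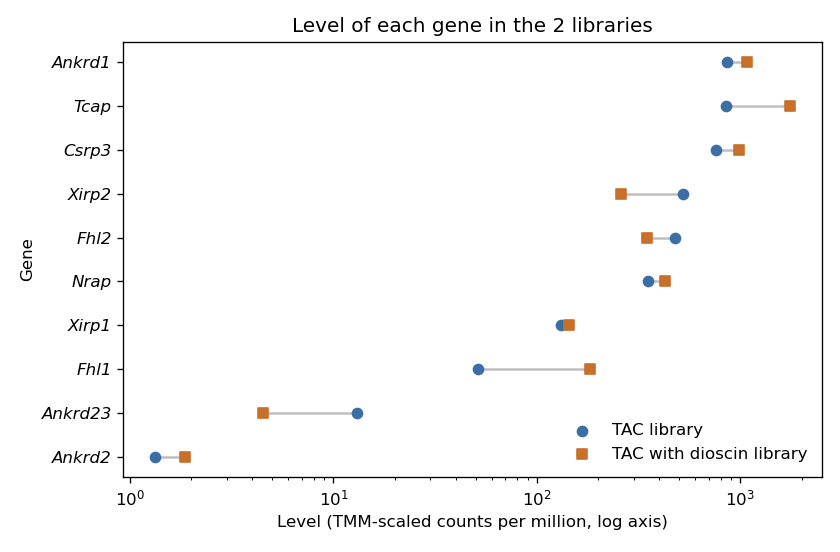
Level of each gene in the TAC library (circles) and in the library of TAC with dioscin (squares), in TMM-scaled CPM on a log axis, with 1 library per group. The levels ran from 1.33 CPM for Ankrd2 to 1759.7 CPM for Tcap, and the widest gaps between the 2 libraries are those of Fhl1 and Ankrd23.

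**Figure D3:**
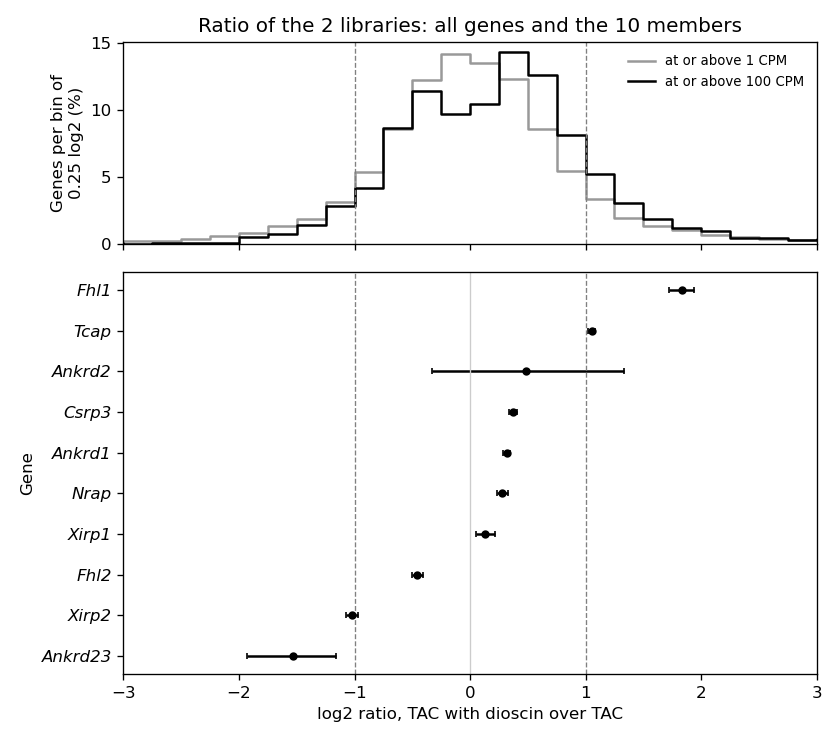
Upper panel, the share of all genes per bin of log2 ratio, for genes at or above 1 CPM and at or above 100 CPM; lower panel, the log2 ratio of each of the 10 genes with its 95% counting interval. Dashed lines mark a 2-fold difference, and only Fhl1, Tcap, Xirp2 and Ankrd23 lie at or past them, with Tcap and Xirp2 close to the line.

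Among the ankyrin repeat genes, Ankrd1 carried nearly all reads in both libraries, and only the scarce Ankrd23 passed the rule. Ankrd1, which encodes the cardiac ankyrin repeat protein CARP (ENSMUSG00000024803.9; chromosome 19, 36111961 to 36120099), had 14930 counts or 865 CPM under TAC, against 18446 counts or 1078 CPM in the dioscin library. Its ratio was 1.25 (1.22 to 1.27), inside a 2-fold difference, and it turned to 0.873 when set against abundant genes of like exon length, an alternative described further on. The 2 libraries thus held this load-induced gene at like levels, ranked 63 and 89 among protein-coding genes by TPM, the per-length scale that divides counts by exon length and then scales each library to 1 common sum.

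Ankrd23, which encodes the titin-binding protein DARP (ENSMUSG00000067653.12), had 226 counts or 13.1 CPM under TAC, against 77 counts or 4.50 CPM with dioscin. It was 2.90-fold lower in the dioscin library (2.24 to 3.82). Because most of its exons are shared, its TPM of 8.37 and 2.94 over all exonic bases would be 38.4 and 13.5 if all its reads came from the 588 bases of its own. Either way it lay far below the 517 and 659 TPM of Ankrd1. Ankrd2, known mainly from skeletal muscle (ENSMUSG00000025172.3; chromosome 19, 42036000 to 42045110), had 23 and 32 counts, or 1.33 and 1.87 CPM, and its interval of 0.796 to 2.51 spans both a lower and a 2-fold higher level.

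By counts per kilobase, Ankrd1 made up 98.0% of the ankyrin repeat trio under TAC and 99.1% with dioscin. This share takes Ankrd23 over all its exonic bases, and it would be smaller if the Ankrd23 reads came only from its own 588 bases. The quotient of Ankrd1 to Ankrd23 counts was 66.1 under TAC and 239.6 with dioscin, a change of 3.63-fold (2.79 to 4.76). Such a quotient within a library does not depend on how the libraries were scaled, but it can still carry the trend with exon length described further on.

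The FHL genes, which encode proteins built almost wholly of LIM domains, had ratios on opposite sides of 1. Fhl1 (ENSMUSG00000023092.16; chromosome X, 56731787 to 56793346), whose protein acts on titin's N2B region and on MAP kinase signalling, had 885 counts or 51.2 CPM in the TAC library. In the dioscin library it had 3122 counts or 182.4 CPM. It was 3.56-fold higher (3.30 to 3.84), past the rule under each of the 4 other scalings too. Its log2 ratio was the farthest from 0 of the 10 with TMM, while Ankrd23 lay farther with cardiomyocyte-marker scaling (-1.72 against 1.65) and against genes of like exon length (-2.10 against 1.43). Fhl2, a cofactor that also tethers metabolic enzymes to titin (ENSMUSG00000008136.14; chromosome 1, 43123074 to 43196984), had 8247 counts or 478 CPM and 5954 counts or 348 CPM. Its ratio was 0.728 (0.704 to 0.753), which did not pass the rule.

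Fhl2 remained the more abundant of the pair on the per-length scale, with 434 and 324 TPM against 23.8 and 86.7 TPM for Fhl1. The level of Fhl2 was 18.2 times that of Fhl1 per kilobase under TAC and 3.73 times with dioscin. Fhl1 took 9.69% of the pair's raw counts in the TAC library (exact interval 9.09 to 10.3) and 34.4% in the dioscin library (33.4 to 35.4). The quotient of Fhl1 to Fhl2 thus differed 4.89-fold between the libraries (4.50 to 5.31). The pair's summed counts were alike, 9132 and 9076.

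**Figure D4:**
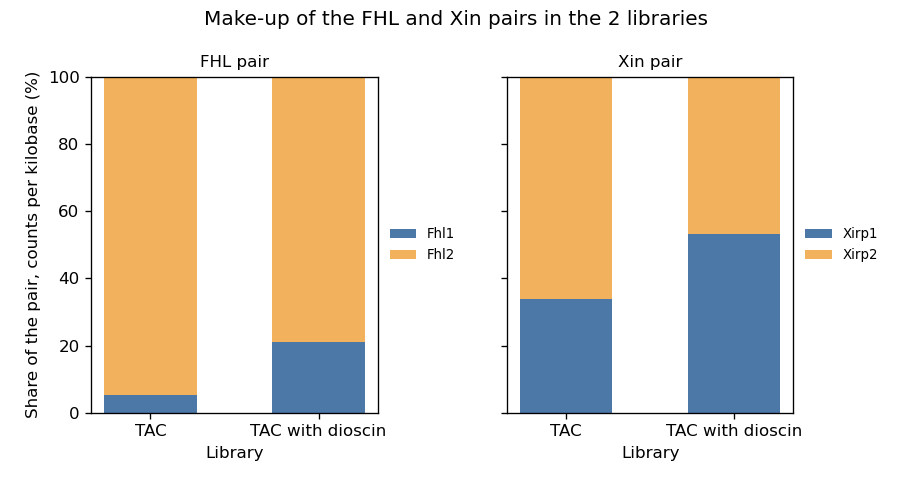
Share of each gene in the FHL pair and in the Xin pair, by counts per kilobase of merged exons, in each library. Fhl1 makes up 5.20% and 21.1% of its pair, and Xirp1 33.9% and 53.3% of its pair. The trend with exon length was not taken out of these shares.

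At the Z-disc, Tcap was higher and Csrp3 did not pass the rule. Tcap (ENSMUSG00000007877.2; chromosome 11, 98383811 to 98384953) is a gene of 2 exons whose product caps the end of titin. It had 14660 counts or 849 CPM under TAC and 30120 counts or 1759.7 CPM with dioscin. The ratio was 2.07 (2.03 to 2.11). It was the most abundant of the 10 per length in both libraries, with 1545 and 3276 TPM, at ranks 19 and 20 among protein-coding genes. Its rank hardly differed although its TPM did.

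The Tcap call rests on the scaling. Scaled by total gene counts the ratio was 1.96, and scaled by 10 cardiomyocyte markers it was 1.83, both short of the rule. Csrp3, the muscle LIM protein gene whose loss causes dilated cardiomyopathy in mice (ENSMUSG00000030470.15; chromosome 7, 48830398 to 48848033), had 13076 counts or 757 CPM and 16773 counts or 980 CPM. Its ratio was 1.29 (1.26 to 1.32), and 0.872 against abundant genes of like exon length.

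The Xin genes also differed from each other. Xirp2 (ENSMUSG00000027022.14; chromosome 2, 67446002 to 67526614), a MEF2 target that encodes an actin-binding protein of the intercalated disc, had 9077 counts or 526 CPM under TAC, against 4424 counts or 258 CPM with dioscin. It was 2.03-fold lower (1.96 to 2.11), with the lower end of that interval short of 2. Xirp1, which encodes the Xin protein proper (chromosome 9, 120013755 to 120023598), had 2268 counts or 131 CPM and 2462 counts or 144 CPM. Its ratio was 1.095 (1.03 to 1.16), and it fell below 1 when libraries were scaled by the cardiomyocyte markers (log2 ratio -0.05).

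Xirp1 took 20.0% of the pair's counts in the TAC library (19.3 to 20.7) and 35.8% in the dioscin library (34.6 to 36.9), and the quotient of Xirp1 to Xirp2 differed 2.23-fold (2.08 to 2.38). Per kilobase, Xirp2 lay at 1.95 times Xirp1 under TAC and at 0.876 times with dioscin. As counted, the order of the pair was thus not the same in the 2 libraries. The length trend described further on was not taken out of these quotients. Abundant genes nearest in length had median log2 ratios of 0.18 for Xirp1 and -0.16 for Xirp2. That gap runs the same way as the change in the pair, and whether the order would still change without it was not tested. The opposite-strand gene Gm13601, which lies inside Xirp2, had 263 and 60 counts and was 4.32-fold lower (3.27 to 5.85). Reads of Xirp2 and Gm13601 cannot be told apart where they overlap, and they could have gone to the line for reads in more than 1 gene. The counts of both genes together were 2.06-fold lower, and any reads on that line are not among them.

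Nrap (ENSMUSG00000049134.15; chromosome 19, 56320035 to 56390037), whose protein links actin filaments to the intercalated disc, had 6052 counts or 350.5 CPM and 7282 counts or 425 CPM. Its ratio was 1.21 (1.17 to 1.26). The 6 genes not past the rule were thus Ankrd1, Ankrd2, Fhl2, Csrp3, Xirp1 and Nrap, and the counting interval of all but Ankrd2 excluded 1. Large counts make such intervals narrow, and how far single mice differ was not measured.

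Exon length ran with the ratio among abundant genes. The 1497 genes that reached 100 CPM were split by exon length into 4 bins of like size. In the shortest bin (57 to 2634 exonic bases) the median log2 ratio was 0.48, and in the longest (7811 bases and more) it was -0.19. Tcap, with 948 exonic bases, lies in the shortest bin, and Xirp2, with 11979, in the longest. Set against the median of the abundant genes nearest in length, an alternative chosen after seeing the data, the ratio of Tcap was 1.497 and Xirp2 was 1.82-fold lower, and neither passed the rule. Fhl1 was still 2.70-fold higher, Ankrd23 was 4.29-fold lower (it lies below the level of the genes it was set against), and Fhl2, at 2.05-fold lower, now passed it.

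**Figure D5:**
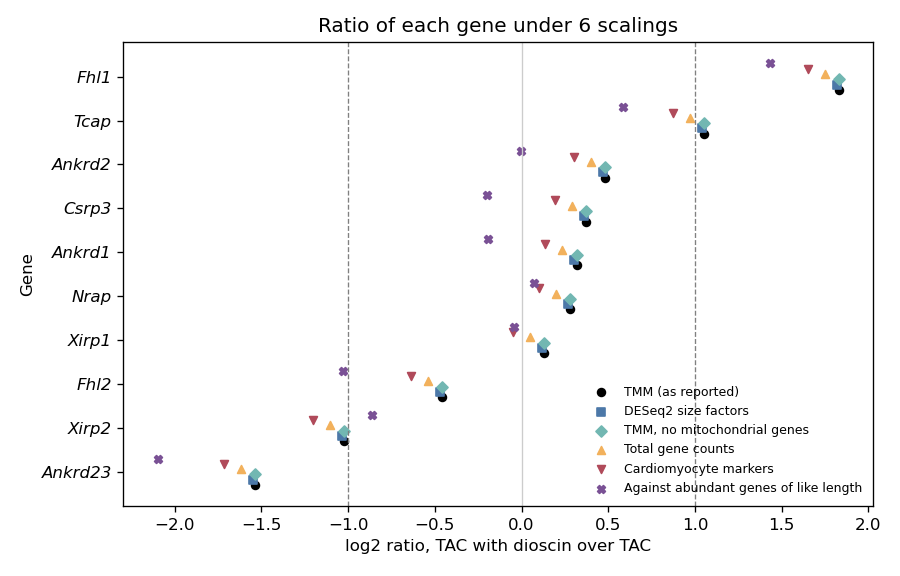
The log2 ratio of each gene under TMM, 4 other scalings and the comparison with abundant genes of like exon length. Fhl1 and Ankrd23 lie past the dashed 2-fold lines under all 6, Tcap under 3 and Xirp2 under 5, and Fhl2 under the last alone.

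Of 20 relatives with LIM domains or nebulin repeats, 18 reached 1 CPM, 3 were higher and 1 was lower, beside 19.3% of all genes called, and their median log2 ratio was 0.27. Pdlim3, the actinin-associated LIM protein gene, was 5.73-fold higher (5.07 to 6.50), from 17.4 to 99.96 CPM. Neb, the thin-filament ruler nebulin, was 3.22-fold higher (2.54 to 4.15), and Pdlim5, which encodes the Z-disc protein ENH, 2.42-fold (2.32 to 2.53). Fhl3, the third muscle FHL gene, was 2.66-fold lower (1.95 to 3.73), at 8.45 and 3.15 CPM. The abundant Crip2 and Ldb3 had ratios of 1.20 and 1.21.

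Among 22 genes of proteins that these 10 bind or sit beside, 20 reached 1 CPM, 4 were higher and 2 were lower, beside 19.3% of all genes called, and the median log2 ratio was 0.01. Mypn, whose product myopalladin binds the ankyrin repeat proteins, was 3.07-fold higher (2.78 to 3.41). Klhl41, a partner of the Nrap protein, was 2.36-fold higher (2.05 to 2.72). Myoz2 and Actn2, genes of the Z-disc proteins calsarcin-1 and alpha-actinin-2, had ratios of 2.07 (2.01 to 2.14) and 2.02 (1.98 to 2.06), and neither passed when scaled by total counts. Kcne1, the potassium channel subunit that binds the titin cap, was 8.17-fold lower (4.42 to 18.4), at 4.98 and 0.584 CPM, and Mybpc3, a thick-filament protein gene, had a 2.20-fold lower level (2.17 to 2.23). Ttn itself, the common partner, had a ratio of 0.654 (0.646 to 0.661).

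Of 24 regulators of mechanical responses, 2 were called higher and 0 lower, beside 10.5% and 8.77% of all genes, and their median log2 ratio was 0.03. The cardiac factors Tbx5 and Nkx2-5 were 9.31-fold (7.67 to 11.5) and 2.12-fold (1.78 to 2.55) higher. Itgb1, integrin beta 1, and Mef2a had 1.62 and 0.946. Of 11 usual readouts of pressure overload, Nppa, Ccn2 and Atp2a2 were higher and 0 were lower, beside the same 10.5% and 8.77% of all genes. These readouts were not sorted by the direction each takes under overload, so the count is no measure of load. The median log2 ratio of the 11 was 0.13. Nppa, Ccn2 and Atp2a2 had ratios of 21.5, 12.2 and 2.36, and Nppa is also on the atrial list. The abundant Myh6 and Myh7 did not pass the rule. Their ratios were 1.10 and 0.757, on opposite sides of 1.

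Cell-type markers show what tissue the libraries held. Their counts stand beside 10.5% of all genes called higher and 8.77% called lower. All 10 cardiomyocyte markers were abundant in both, none passed the rule, and their median log2 ratio was 0.33, close to that of the 10 genes described. Of the 6 atrial markers, 5 were higher, and Mybphl and Bmp10 were at 0 counts under TAC; with Nppa included the list summed to 592 and 17319 CPM. Of 8 mesothelial markers, 7 were higher (2.55 and 137.6 CPM summed), while Wt1 stood at 15.98 and 15.4 CPM. Of 6 adipocyte markers, 5 were higher (0.811 and 30.7 CPM summed). Of 4 ventricular markers, Irx4 was 4.20-fold lower (3.62 to 4.91), and the other 3 did not pass. Skeletal muscle markers, relevant to Ankrd2, Fhl1 and Tcap, summed to 30.5 and 34.1 CPM, most of it from Mybpc2 at 20.3 and 18.4 CPM. Of the 6 out of 11 that reached 1 CPM, 2 were higher and 1 was lower. Atp2a1 was 4.29-fold and Tnni2 2.77-fold higher, and Pvalb had 40 counts under TAC and 1 with dioscin. Myh1 and Myh4 were at 0 counts in both libraries.

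Of the remaining lists, 2 of 5 fibroblast markers were higher, 2 of 5 endothelial markers were higher, and smooth muscle markers had 1 of 6 higher and 1 lower. These lists are short, and of all genes 10.5% were higher and 8.77% lower. The atrial, mesothelial and fat markers moved with the dioscin library in the same direction as Fhl1 and Tcap, and their part in those ratios was not tested. In bulk RNA, fewer cells of a type and less RNA per cell cannot be told apart.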

How the data were processed

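The authors deposited raw counts of reads per gene for 2 libraries, and per the submitters' processing notes HISAT2 2.1.0, HTSeq and the build mm10 were used. Of the annotation release and the strand setting nothing is stated. Lines for reads given to no gene were left out. Of all alignments tallied, 30.0% fell in no gene in each library, and 38.2% (TAC) and 36.5% (dioscin) were not unique. Of 55401 identifiers, 55141 matched GENCODE M21 on GRCm38, with the version suffix ignored. The deposited identifiers of Xirp1 and Xirp2 carry a later version than M21 does. Their coordinates and exon lengths given here are those of M21 and may not be the ones used in counting.

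Scaling used TMM in edgeR 4.0.16 (R 4.3.3). Ratios took a pseudocount of 0.5, a filter of 1 CPM in at least 1 library and a fold of 2, with exact 95% Clopper-Pearson intervals (scipy 1.17.1). The interval of a quotient of 2 genes is the conditional exact one. The calculation was tested on simulated counts that held counting error only, so that test does not bear on differences between mice. Alternatives were DESeq2 1.42.0 size factors, total counts, TMM without mitochondrially encoded genes, cardiomyocyte markers, other filters, folds and pseudocounts, and like exon length, which was added after seeing the data.

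The 10 genes and the lists were chosen with earlier results of these data known. All 10 genes were named. Of each list, genes past the rule and the 2 most abundant others could be named.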

Additional observations from a re-analysis of the deposited data

How the results depend on the processing

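With 1 library per group, no library could be left out, and no paired analysis was possible because there were no replicates. The count of higher genes among the 10 was 1 instead of 2 with total gene counts, with cardiomyocyte markers, with a 3-fold rule and against abundant genes of like exon length, and the count of lower genes was 0 instead of 2 with the 3-fold rule. Scaling by cardiomyocyte markers shifted log2 ratios by -0.18, the median of all genes included, which left 1220 of all genes higher and 1995 lower in place of 1655 and 1377. Over all genes, 1045 were higher and 695 lower with the 5 CPM filter, 3187 and 2815 with a 1.5-fold rule, and 781 and 554 with a 3-fold rule. Among the binding partners 2 instead of 4 were higher with total counts and with cardiomyocyte markers, and among the regulators 1 was higher and 1 lower with cardiomyocyte markers. Over the 4 other scalings and a pseudocount of 1, the log2 ratio ran from 1.65 to 1.83 for Fhl1, from 0.87 to 1.05 for Tcap, from -1.20 to -1.02 for Xirp2 and from -1.72 to -1.53 for Ankrd23. Depth limits Ankrd2, whose interval at 23 and 32 counts holds both 1 and 2.
Against abundant genes of like exon length, Fhl2 passed the rule as lower while Tcap and Xirp2 no longer did, and the log2 ratios of Ankrd1 and Csrp3 moved to -0.20 and that of Xirp1 to -0.04.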
